A study of Arabidopsis thaliana with 6 samples.

Results

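Described here are 33 nuclear genes of the photosynthetic electron transport chain in Arabidopsis thaliana shoots: 12 photosystem I (PSI) subunits, 11 photosystem II (PSII) subunits, 7 genes of the cytochrome b6f complex, plastocyanin, ferredoxin and ferredoxin-NADP reductase, and 3 subunits of the chloroplast ATP synthase. They were taken by gene identifier from a listing of 37869 genes, and all 33 were found and passed the expression filter. Light-harvesting antenna genes and Rubisco genes are outside the set. The libraries came from 2 genotypes in the Col-0 accession: sme1-1, which the sample labels call smeb-1, with 3 libraries, and wild-type (WT) Col-0, with 3 libraries. SME1 encodes an Sm protein, a member of the ring that forms the core of the spliceosomal snRNPs, and the series title links its loss to tolerance of oxidative stress. Shoots were taken at 3 weeks of age, without a stress treatment, from plants on sucrose-containing medium in long days. The sample titles mark the sme1-1 libraries as KO, and the labels do not describe the lesion further. Nothing in the labels tells whether replicate libraries derive from separate plants. A p-value here thus reflects the spread among libraries only, and part of that spread may be technical. In bulk shoot RNA, fewer cells of a type and less RNA per cell cannot be told apart.

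As background, PSII uses light to oxidise water and passes the electrons through plastoquinone to the cytochrome b6f complex, from which plastocyanin carries them to PSI. PSI raises their energy again and hands them to ferredoxin, and ferredoxin-NADP reductase makes NADPH, while the proton gradient drives the ATP synthase. The reaction centre cores are encoded in the chloroplast genome, whereas the peripheral subunits and the small electron carriers are encoded in the nucleus, in Arabidopsis often by a pair of similar genes, and are among the most abundant leaf messages.

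Expression was given as TPM, the share of a transcript among all transcripts of a library, corrected for length and summed per gene, and the number of reads behind a value is not known. In WT the set ranked between place 9 (PSBR) and place 1955 (FD1) of all genes by mean TPM, and 29 of the 33 were among the 100 highest. Together the genes held 6.76, 8.09 and 7.33% of all TPM in the sme1-1 libraries, against 9.52, 9.53 and 9.66% in the WT libraries, and the genotypes did not overlap. The sme1-1 libraries differed among themselves: replicate 2 was the highest sme1-1 library for 32 of the 33 genes, and replicate 1 was the lowest for 26. SME1 itself had 36.1, 31.6 and 29.7 TPM in sme1-1, against 76.9, 73.9 and 75.3 TPM in WT, so the message fell (log2 change -1.19, standard error 0.08, limma adjusted p = 4.36e-05) but was present in the libraries labelled sme1-1. With annotated transcripts only, its log2 change was -1.86 (limma adjusted p = 3.34e-05), so part of the sme1-1 level lay in transcripts assembled from the reads.

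Of the 33 genes, 22 fell and 2 rose in sme1-1, by limma on log2(TPM + 1) with Benjamini-Hochberg adjustment over the 20100 genes whose mean reached 1 TPM, at an adjusted p below 0.05; every log2 change below is sme1-1 minus WT on that scale. Across all genes tested, 20% fell and 47.3% rose. The genes that rose were FD1, a ferredoxin, and PSBS, the PSII protein needed for energy-dependent quenching of excess light. The median log2 change was -0.34 over the set and 0.22 over all genes tested. In 23 genes every sme1-1 library lay below every WT library (background 22.4% of genes tested), in 2 every sme1-1 library lay above (background 51.0%), and in 8 the libraries overlapped. Among the 1295 genes at or above the mean TPM of the lowest of the 33, 432 fell and 568 rose, with a median of 0.09.

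TPM is a share, and the median gene stood 0.22 higher in sme1-1 on the log2 scale, so 2 other scalings were set beside it. Median-of-ratios scaling, which centres the libraries on their typical gene, gave 29 genes lower and 2 higher, with a median of -0.58, against 33.2% lower and 33.9% higher over all genes. Quantile normalization, which gives every library the same distribution of values, gave 9 lower and 4 higher, with a median of -0.04, against 35.8% lower and 30.9% higher over all genes. It sets values by rank, so a fall shared by the highest genes that leaves their ranks alike would show little or no change. Of the 33 genes, 29 were among the 100 highest in WT, so a missing quantile call does not show that a gene was unchanged. The median of the set was below 0 under all 3 scalings, while its size and its place against the median of all genes depended on the scaling. Of the 1295 genes at or above the lowest of the 33, median-of-ratios scaling gave 601 lower and 361 higher, with a median of -0.15. Quantile normalization gave 446 lower and 531 higher of these 1295, with a median of 0.05. The median of the set lay below that of these 1295 genes under all 3 scalings. A call in the same direction under TPM, median-of-ratios and quantile scaling was made for 11 genes: PSAD2, PSAF, PSAH1, PSAN, PSBQ1, PETC, PETE1, FD2 and FNR2 were lower, and FD1 and PSBS were higher. Relative to the median gene, TPM put PSAF at -1.22, FD2 at -1.20, PSBS at 0.30 and FD1 at 0.76 on the log2 scale.

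**Figure D1:**
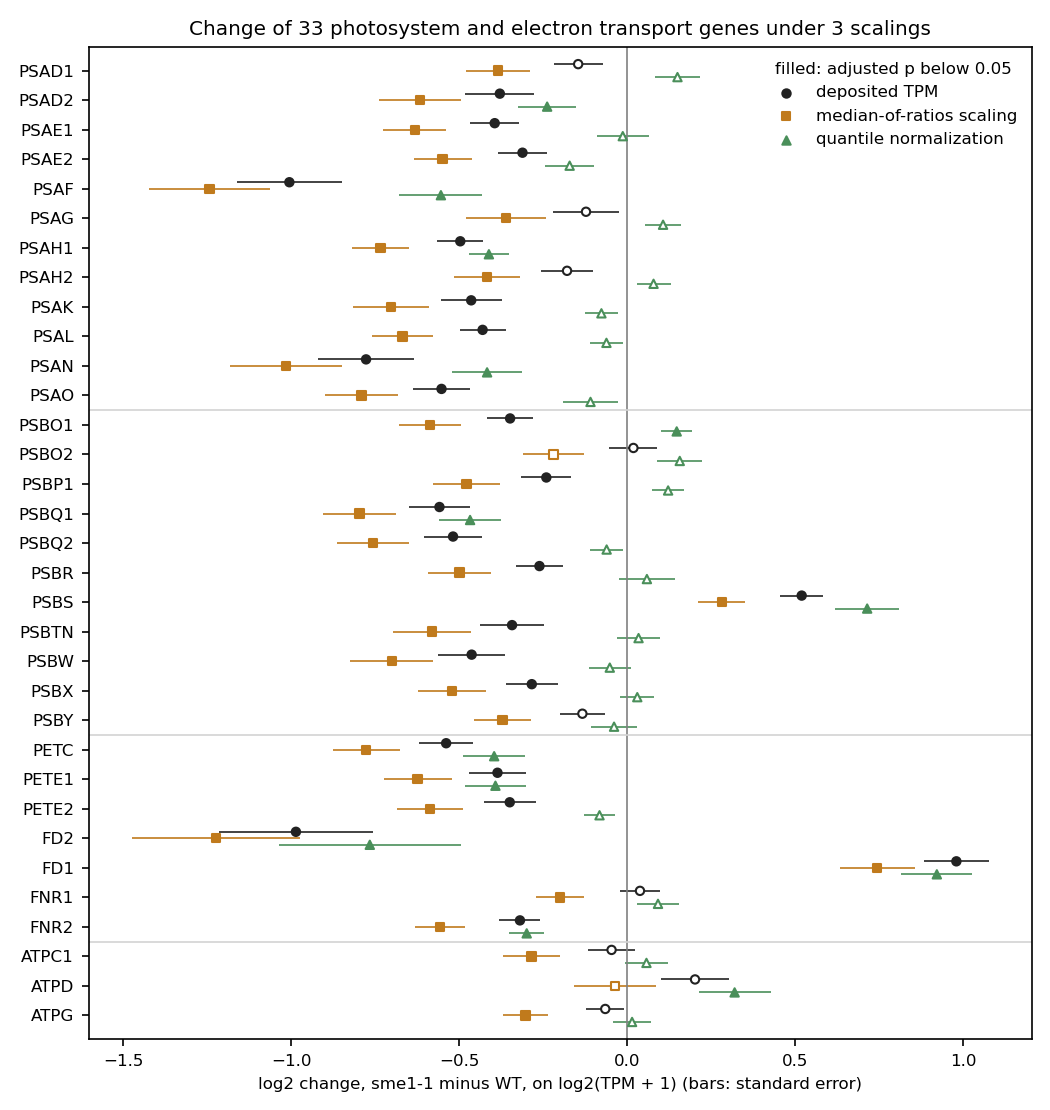
Log2 change (sme1-1 minus WT, log2(TPM + 1) scale) of each of the 33 genes, grouped by role, under the deposited TPM, median-of-ratios scaling and quantile normalization, with bars of 1 standard error from limma (3 libraries per genotype) and filled symbols for an adjusted p below 0.05. Median-of-ratios points lie to the left of the TPM points throughout, quantile points of most PSI and PSII genes lie near 0, and FD1 and PSBS lie right of 0 under all 3.

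In photosystem I, 9 of 12 subunit genes fell and none rose under TPM (limma; 0 higher at an unadjusted p below 0.05; median log2 change -0.41); the other 3, PSAD1, PSAG and PSAH2, had adjusted p-values of 0.119, 0.305 and 0.077 and log2 changes below 0. All 12 were lower under median-of-ratios scaling, and 4 were lower under quantile normalization. The largest fall was in PSAF (AT1G31330, chromosome 1, 11214676 to 11216141, minus strand, TAIR10.1 assembly), the subunit that docks plastocyanin on the lumenal side. PSAF had 2305, 3578 and 2960.2 TPM in sme1-1, against 5562, 6046 and 5881 TPM in WT. The libraries did not overlap, and the lowest sme1-1 library was replicate 1. The means were 2948 ± 637 TPM in sme1-1 and 5829 ± 246 TPM in WT (SD, n = 3 each; log2 change -1.01, standard error 0.16, limma adjusted p = 0.0013), and the quantile change was -0.55 (limma adjusted p = 0.00744). PSAN (AT5G64040), a lumenal subunit at the same plastocyanin-docking side, had 2038, 3066 and 2453 TPM in sme1-1, against 4279, 4169 and 4327 TPM in WT. Again replicate 1 was the lowest of sme1-1 and the genotypes did not overlap (log2 change -0.78, limma adjusted p = 0.00285).

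Of the subunits at the antenna side of PSI and at the docking site for mobile antenna complexes, PSAO, PSAL and PSAK fell. PSAO (AT1G08380), which with PSAL and PSAH takes part in binding light-harvesting complex II to PSI, had 4429, 5171 and 4754 TPM in sme1-1, against 6685, 7394 and 6953 TPM in WT (log2 change -0.55, limma adjusted p = 0.00118). PSAL (AT4G12800), also at the trimer-forming side in cyanobacteria, had 3695, 4123 and 3846 TPM in sme1-1, against 5369.9, 5205 and 5131 TPM in WT (log2 change -0.43, limma adjusted p = 0.00147). PSAK (AT1G30380), on the antenna side of the complex, had 2597, 3225 and 2919 TPM in sme1-1, against 3932, 4146 and 3939 TPM in WT (log2 change -0.46, limma adjusted p = 0.00372). The libraries of these 3 genes did not overlap between genotypes, and under quantile normalization none of the 3 passed the test, with changes of -0.11 (limma adjusted p = 0.278), -0.06 (limma adjusted p = 0.31) and -0.08 (limma adjusted p = 0.202). PSAG (AT1G55670), which anchors the antenna belt, had 2487, 2989 and 2832 TPM in sme1-1, against 3067, 2733 and 3239.7 TPM in WT. Its libraries overlapped, and it was lower only under median-of-ratios scaling among the 3 scalings, at -0.36 (limma adjusted p = 0.0344).

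The stromal subunits PSAD and PSAE form the ferredoxin docking site, and each is encoded by a pair of genes. PSAD1 (AT4G02770) had 2604, 3004 and 2786 TPM in sme1-1, against 3151, 2980.0 and 3142 TPM in WT. These values overlapped, and PSAD1 was lower under median-of-ratios scaling (-0.38, limma adjusted p = 0.0109) but not under quantile normalization (0.15, limma adjusted p = 0.084). PSAD2 (AT1G03130) had 1192, 1555 and 1372 TPM in sme1-1, against 1842, 1693 and 1794 TPM in WT. PSAD2 did not overlap and fell under TPM (log2 change -0.38, standard error 0.10, limma adjusted p = 0.0151). PSAE1 (AT4G28750) had 2848, 3228 and 2826 TPM in sme1-1, against 3878, 3938 and 3863 TPM in WT. PSAE2 (AT2G20260) had 1129.5, 1275 and 1198 TPM in sme1-1, against 1597, 1437 and 1438 TPM in WT. Both PSAE genes fell without overlap, with log2 changes of -0.39 and -0.31 (limma adjusted p = 0.00287 and 0.00849), and both missed the threshold under quantile normalization, at -0.01 (limma adjusted p = 0.891) and -0.17 (limma adjusted p = 0.0797). PSAH, the subunit needed for state transitions, is likewise encoded by a pair. PSAH1 (AT3G16140) had 766, 889 and 846 TPM in sme1-1, against 1159, 1196 and 1168 TPM in WT, without overlap (log2 change -0.50, standard error 0.07, limma adjusted p = 7.77e-04). PSAH2 (AT1G52230) had 2533, 2965 and 2640.1 TPM in sme1-1, against 3056, 2989 and 3149 TPM in WT, also without overlap, but did not pass the test under TPM (log2 change -0.18, limma adjusted p = 0.077); it was lower under median-of-ratios scaling, at -0.42 (limma adjusted p = 0.00925), and the quantile change was 0.08 (limma adjusted p = 0.208).

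In photosystem II, 8 of 11 genes fell and 1, PSBS, rose under TPM (median log2 change -0.28). Median-of-ratios scaling gave 9 lower and 1 higher, and quantile normalization gave 1 lower and 2 higher. PSBS (AT1G44575, chromosome 1, 16870221 to 16873427, plus strand) had 1737, 1662 and 1553 TPM in sme1-1, against 1134, 1129.5 and 1186 TPM in WT. Every sme1-1 library lay above every WT library, and replicate 1 was the highest. The means were 1651 ± 92.2 TPM in sme1-1 and 1150.1 ± 31.5 TPM in WT (SD, n = 3 each; log2 change 0.52, standard error 0.06, limma adjusted p = 4.40e-04), and the change was 0.28 (limma adjusted p = 0.011) under median-of-ratios scaling and 0.71 (limma adjusted p = 8.04e-04) under quantile normalization.

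The lumenal oxygen-evolving subunits PSBO, PSBP and PSBQ stabilise the manganese cluster. PSBO1 (AT5G66570), the major PSBO gene, had 3981, 4490.1 and 4197 TPM in sme1-1, against 5382, 5372 and 5357 TPM in WT. The libraries did not overlap and PSBO1 fell under TPM (log2 change -0.35, standard error 0.07, limma adjusted p = 0.00392) and under median-of-ratios scaling (-0.59, limma adjusted p = 0.00164). It was higher under quantile normalization (0.15, limma adjusted p = 0.0279), so its direction rests on the scaling. By mean TPM PSBO1 ranked 16 in WT and 13 in sme1-1, and quantile values follow rank. PSBO2 (AT3G50820) had 1303, 1503 and 1332 TPM in sme1-1, against 1317, 1376 and 1385 TPM in WT, overlapped, and did not pass the test (log2 change 0.02, limma adjusted p = 0.829), with a change of -0.22 (limma adjusted p = 0.0688) under median-of-ratios scaling. PSBP1 (AT1G06680) had 3755, 4315 and 3902 TPM in sme1-1, against 4583, 4704 and 4836 TPM in WT. PSBP1 did not overlap and passed narrowly (log2 change -0.24, limma adjusted p = 0.026); the adjusted p was between 0.0513 and 0.0909 when any 1 library other than sme1-1 replicate 2 was left out, and the quantile change was 0.12 (limma adjusted p = 0.0636). PSBQ1 (AT4G21280) had 1061, 1325 and 1128 TPM in sme1-1, against 1683, 1736 and 1736 TPM in WT. It fell without overlap under TPM (log2 change -0.56, standard error 0.09, limma adjusted p = 0.00151), and the quantile change was -0.47 (limma adjusted p = 0.00429). PSBQ2 (AT4G05180) had 2786, 3391 and 3048 TPM in sme1-1, against 4446, 4284 and 4442 TPM in WT, without overlap (log2 change -0.52, limma adjusted p = 0.00169; quantile change -0.06, limma adjusted p = 0.304).

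The remaining PSII genes encode small or peripheral subunits of the complex. PSBR (AT1G79040), which helps to bind PSBP, had 5650.4, 6176 and 6152 TPM in sme1-1, against 7269, 7221 and 7037 TPM in WT. PSBW (AT2G30570), a small membrane subunit that stabilises PSII supercomplexes, had 2950.3, 3756 and 3400.3 TPM in sme1-1, against 4708, 4428 and 4733 TPM in WT. PSBX (AT2G06520), a small membrane subunit, had 3556, 4115 and 3803 TPM in sme1-1, against 4529.5, 4581 and 4840.1 TPM in WT. These 3 fell without overlap, with log2 changes of -0.26, -0.46 and -0.28 (limma adjusted p = 0.0135, 0.00553 and 0.015). PSBTN (AT3G21055), a small nuclear-encoded lumenal subunit, had 1685, 2136 and 1959 TPM in sme1-1, against 2447, 2368 and 2481 TPM in WT, without overlap, and fell (log2 change -0.34, limma adjusted p = 0.016). Leaving out 1 WT library ended the call of PSBR (without replicate 2, limma adjusted p = 0.0509), of PSBX (without replicate 3, 0.0606) and of PSBTN (without replicate 3, 0.0518). PSBY (AT1G67740), another small membrane subunit, had 984, 1136 and 1043 TPM in sme1-1, against 1127, 1173 and 1164 TPM in WT. Its libraries overlapped and it did not pass the test (log2 change -0.13, limma adjusted p = 0.124), though it was lower under median-of-ratios scaling (-0.37, limma adjusted p = 0.00836). With no filter on low values, the adjusted p of PSBO1, PSBP1, PSBR, PSBTN and PSBX was between 0.0564 and 0.26, above the threshold. The quantile changes of PSBR, PSBW, PSBX and PSBTN were 0.06 (limma adjusted p = 0.56), -0.05 (limma adjusted p = 0.497), 0.03 (limma adjusted p = 0.616) and 0.03 (limma adjusted p = 0.652).

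**Figure D2:**
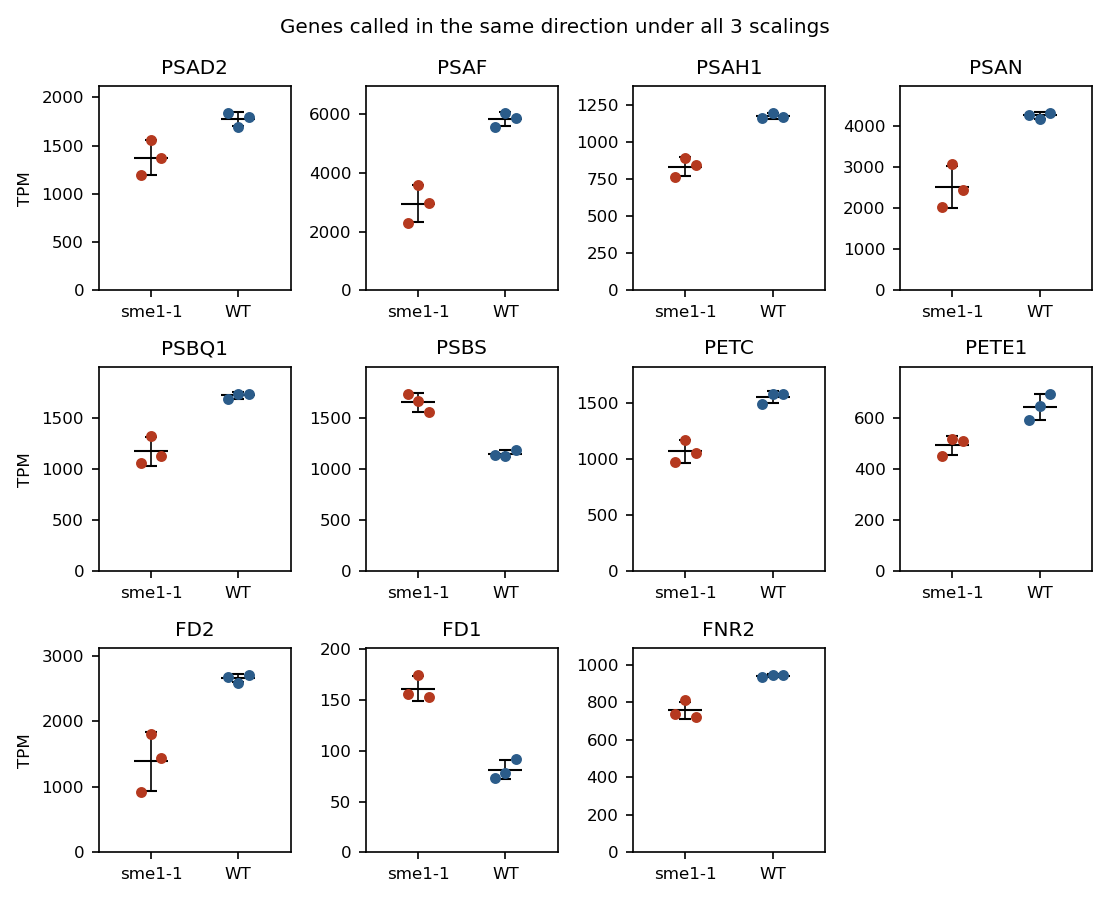
TPM in each library (points), with the mean (horizontal line) and SD (error bar), for the 11 genes called in the same direction under TPM, median-of-ratios and quantile scaling, sme1-1 left of WT in each panel, with axes of different ranges starting at 0. The sme1-1 points lie below the WT points in 9 panels and above them for PSBS and FD1, without overlap in any panel.

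Among the electron carriers, 5 of 7 genes fell, FD1 rose and FNR1 did not pass the test under TPM; 6 were lower under median-of-ratios scaling and 4 under quantile normalization, with FD1 higher in each. PETC (AT4G03280), the Rieske iron-sulfur protein of the cytochrome b6f complex, had 975, 1171 and 1051 TPM in sme1-1, against 1483, 1573 and 1579 TPM in WT. The genotypes did not overlap (log2 change -0.54, standard error 0.08, limma adjusted p = 0.00108), and the change was -0.78 (limma adjusted p = 6.61e-04) under median-of-ratios scaling and -0.40 (limma adjusted p = 0.00857) under quantile normalization. PETM, a small subunit of the same complex that is outside the set and was picked out after its values were seen, averaged 911 ± 239.9 TPM in sme1-1 and 1694 ± 197 TPM in WT (log2 change -0.92, limma adjusted p = 0.00515). Both plastocyanin genes fell under TPM. PETE1 (AT1G76100), the lower of the pair, had 449.7, 516 and 510.3 TPM in sme1-1, against 592, 644 and 694 TPM in WT (log2 change -0.39, limma adjusted p = 0.00597). PETE2 (AT1G20340), the major plastocyanin gene, had 2318, 2713 and 2436 TPM in sme1-1, against 3141, 3079 and 3275 TPM in WT (log2 change -0.35, limma adjusted p = 0.00628). Neither overlapped, and the quantile change was -0.39 (limma adjusted p = 0.00899) for PETE1 and -0.08 (limma adjusted p = 0.156) for PETE2.

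The leaf-type ferredoxins moved in opposite directions. FD2 (AT1G60950, chromosome 1, 22444307 to 22445291, plus strand), the major leaf ferredoxin, had 921, 1814 and 1444 TPM in sme1-1, against 2672, 2591 and 2712 TPM in WT. FD1 (AT1G10960, chromosome 1, 3664187 to 3665040, plus strand), the minor leaf-type ferredoxin, had 156, 175 and 153 TPM in sme1-1, against 73.4, 78.5 and 91.99 TPM in WT. Neither gene overlapped between genotypes, and the sme1-1 libraries of FD2 spread widely, with replicate 1 lowest. FD2 averaged 1393 ± 449 TPM in sme1-1 and 2658 ± 61.5 TPM in WT (SD, n = 3 each; log2 change -0.99, standard error 0.23, limma adjusted p = 0.00789), and FD1 averaged 161 ± 11.97 TPM in sme1-1 and 81.3 ± 9.6 TPM in WT (SD, n = 3 each; log2 change 0.98, standard error 0.10, limma adjusted p = 1.92e-04). Under median-of-ratios scaling the changes were -1.22 (limma adjusted p = 0.00507) for FD2 and 0.74 (limma adjusted p = 0.00131) for FD1, and under quantile normalization -0.77 (limma adjusted p = 0.0426) and 0.92 (limma adjusted p = 4.44e-04).

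Ferredoxin-NADP reductase, the last enzyme of linear electron flow, has a pair of leaf isoforms. FNR1 (AT5G66190) had 869, 942 and 858 TPM in sme1-1, against 882, 876 and 840.0 TPM in WT. FNR2 (AT1G20020) had 735, 809 and 722 TPM in sme1-1, against 934, 946 and 944 TPM in WT. FNR1 overlapped and did not pass the test under TPM (log2 change 0.04, limma adjusted p = 0.59), and was lower under median-of-ratios scaling (-0.20, limma adjusted p = 0.0423). FNR2 fell without overlap (log2 change -0.32, standard error 0.06, limma adjusted p = 0.00333), and the quantile change was -0.30 (limma adjusted p = 0.00263).

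The nuclear ATP synthase genes gave no call under TPM (limma; 0 of 3 at an unadjusted p below 0.05). ATPC1 (AT4G04640), the gamma subunit whose thiols switch the enzyme with light, had 1063, 1178 and 1021 TPM in sme1-1, against 1085, 1126 and 1152 TPM in WT. ATPD (AT4G09650), the delta subunit, had 1085, 1415 and 1183 TPM in sme1-1, against 1031, 1061 and 1089 TPM in WT. ATPG (AT4G32260), subunit b' of the membrane part (CFO-II), had 996, 1053 and 971 TPM in sme1-1, against 1085, 1044 and 1030.4 TPM in WT. The libraries of all 3 overlapped, with log2 changes of -0.05, 0.20 and -0.07 (limma adjusted p = 0.582, 0.117 and 0.341). ATPC1 and ATPG were lower under median-of-ratios scaling, at -0.28 (limma adjusted p = 0.0242) and -0.30 (limma adjusted p = 0.00693), and ATPD was higher under quantile normalization, at 0.32 (limma adjusted p = 0.0353).

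Levels were also summed by role in each library. The PSI genes summed to 28624, 35069 and 31431 TPM in sme1-1, against 43578, 43925 and 44024 TPM in WT, so that the sme1-1 mean was 72.3% of the WT mean. The PSII genes summed to 29448, 34006 and 31517 TPM in sme1-1, against 38627, 38374 and 39197 TPM in WT, or 81.7%. The electron carriers summed to 6423, 8140.0 and 7174 TPM in sme1-1, against 9778, 9788 and 10135 TPM in WT, or 73.2%. In these 3 sums every sme1-1 library lay below every WT library. The ATP synthase genes summed to 3145, 3645 and 3175 TPM in sme1-1, against 3201, 3232 and 3271 TPM in WT, with overlap, or 103% of WT. Under median-of-ratios scaling the percentages were 61.4% for PSI, 69.4% for PSII, 62.2% for the electron carriers and 87.2% for the ATP synthase; no test was run on these sums.

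**Figure D3:**
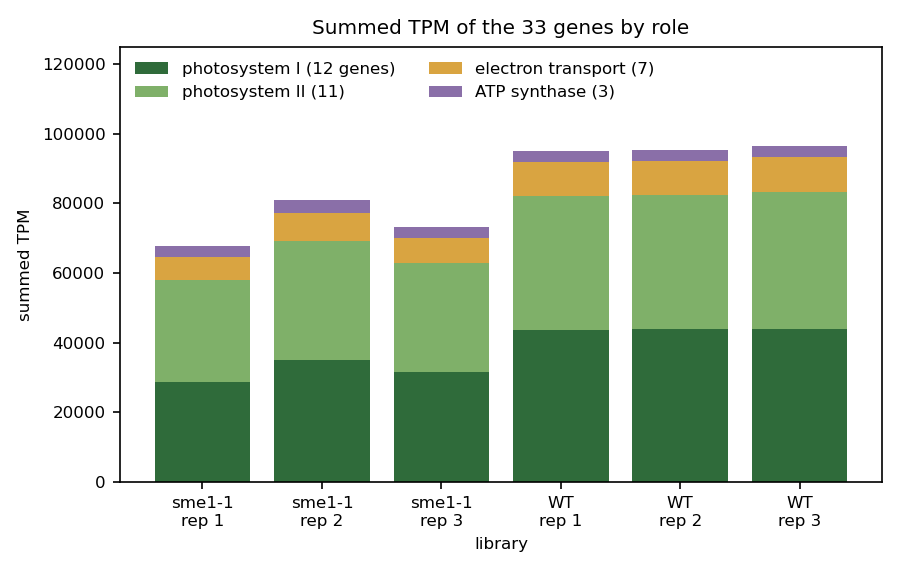
Summed TPM of the 33 genes in each of the 6 libraries, as bars from 0 stacked by role (photosystem I, photosystem II, electron transport, ATP synthase), with the 3 sme1-1 libraries left of the 3 WT libraries. The sme1-1 bars are lower than every WT bar and differ in height, with replicate 2 the highest and replicate 1 the lowest, and the ATP synthase band is of like height in all libraries.

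Because a ratio within a library is free of library scaling, the balance of each of the 8 paralogue pairs was compared next. The libraries of sme1-1 and WT did not overlap for 5 pairs. FD1 made up 14.5, 8.78 and 9.55% of the FD1 and FD2 sum in sme1-1, against 2.67, 2.94 and 3.28% in WT, and replicate 1 was the highest of sme1-1. FNR1 made up 54.1 ± 0.26% in sme1-1 and 47.9 ± 0.745% in WT of the FNR sum (SD, n = 3 each), PSBO1 75.4 ± 0.493% in sme1-1 and 79.8 ± 0.474% in WT of the PSBO sum, PSAH1 23.5 ± 0.651% in sme1-1 and 27.7 ± 0.782% in WT of the PSAH sum, and PSAD1 67.2 ± 1.36% in sme1-1 and 63.5 ± 0.35% in WT of the PSAD sum. Each of these 5 pairs had a two-sided exact permutation p of 0.1, the smallest that 3 libraries against 3 allow, and an adjusted p of 0.16 over the 8 pairs, so the design could not take any pair past 0.05. The differences in log2 ratio were 1.98 for FD1 over FD2, 0.36 for FNR1 over FNR2, -0.37 for PSBO1 over PSBO2, -0.32 for PSAH1 over PSAH2 and 0.23 for PSAD1 over PSAD2.

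For the other 3 pairs the libraries overlapped. PSAE1 made up 71.2 ± 0.812% in sme1-1 and 72.3 ± 1.31% in WT of its pair, PSBQ1 27.6 ± 0.543% in sme1-1 and 28.1 ± 0.689% in WT, and PETE1 16.5 ± 0.713% in sme1-1 and 16.9 ± 0.894% in WT (SD, n = 3 each; two-sided exact permutation p = 0.3, 0.4 and 0.8). The coding sequences of the pairs were between 74.95 and 87.97% identical, and the longest stretch that the main transcripts of a pair shared was between 17 and 35 nucleotides, shorter than the read length that the labels give.

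**Figure D4:**
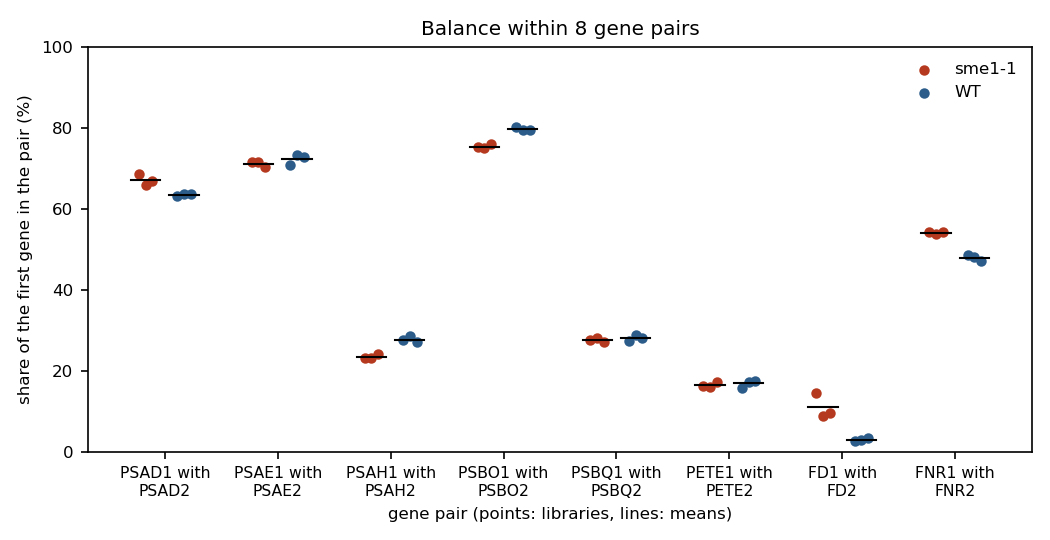
Share of the first-named gene in the summed TPM of each paralogue pair, in percent, for every library (points) with the mean (line), sme1-1 left of WT within each pair, on an axis starting at 0. The genotypes are apart for PSAD, PSAH, PSBO, FD and FNR and overlap for PSAE, PSBQ and PETE.

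The transcript-level values were then examined, since SME1 is a splicing protein. Transcript usage, the share of a gene's output in each transcript, was testable in 20 of the 33 genes and changed in 11 of them (limma diffSplice, Simes-adjusted p below 0.05), beside 23.2% of all genes tested for usage. The 11 genes were PSBO1, FNR2, PSBO2, PSBS, PSAE1, PSBP1, PSAO, PSAK, PSAH2, PSBQ1 and PSBQ2. In 10 of them, all but PSBP1, the mean share of the main transcript was lower in sme1-1. For 9 of the 11 the shift was small, with the mean share of the main transcript at 97.9 to 99.1% in sme1-1, against 98.7 to 99.5% in WT. Leaving out sme1-1 replicate 2 or replicate 3 lowered the count to 7, and PSBO1, FNR2, PSBO2 and PSBS kept their calls whichever library was left out. One split between annotated transcripts varied between libraries of a genotype: the main PSAL transcript held 71.4 ± 43.5% in sme1-1 and 97.6 ± 2.85% in WT (SD, n = 3 each), which was not called.

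FNR2 (chromosome 1, 6942625 to 6945091, plus strand) had the largest loss of main-transcript share among the genes with changed usage. Its fully spliced form had 458, 503 and 479 TPM in sme1-1, against 809, 787 and 766 TPM in WT. The annotated form that keeps the first of 8 introns had 203, 237 and 191 TPM in sme1-1, against 93.4, 116 and 138 TPM in WT. So the spliced form was lower and the retaining form higher in every sme1-1 library than in any WT library, and the spliced form held 63.6 ± 2.37% of the gene in sme1-1 and 83.7 ± 2.71% in WT (SD, n = 3 each; usage Simes-adjusted p = 2.87e-04 by limma). The intron lies at chr1:6942956-6943227 on the plus strand, is 272 nucleotides long and interrupts the coding sequence; read in frame, its first stop codon begins at base 28 of the intron. The retaining form is annotated with a coding sequence of 768 nucleotides, against 1110 for the spliced form. The share that retained the intron, of the TPM in transcripts that either keep it or splice it, was 27.7, 29.3 and 26.4% in sme1-1, against 10, 12.2 and 14.6% in WT. Its ends are shown from the TAIR10.1 genome, plus strand, with the first bases of the intron (GT) and the last (AG) in capitals, because the values of FNR2 turn on this intron.
FNR2 intron 1, 5' end, chr1:6942946-6942975: gtttactaagGTactttataagcttttctc
FNR2 intron 1, 3' end, chr1:6943208-6943237: ttgttgggtgtgtttaaaAGggtgcttttt

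PSBP1 (chromosome 1, 2047634 to 2049439, plus strand) differed in the choice between a pair of 5' splice sites 4 bases apart that share a 3' splice site. The main form, which uses the upstream site, had 2895, 3624 and 3354 TPM in sme1-1, against 3402, 3359.6 and 3326 TPM in WT. The annotated form that uses the downstream site had 800.0, 634 and 500.1 TPM in sme1-1, against 1138, 1292 and 1465 TPM in WT. The main form overlapped between genotypes, while the downstream-site form was lower in every sme1-1 library than in any WT library (means 645 ± 150.3 TPM in sme1-1 and 1298 ± 163 TPM in WT, SD, n = 3 each). The main form held 82.3 ± 4.65% of the gene in sme1-1 and 71.5 ± 2.72% in WT (limma usage adjusted p = 0.00514). The downstream-site form is annotated with a coding sequence of 660 nucleotides, against 792. The window that holds both sites is shown from TAIR10.1, plus strand, with the GT of each site in capitals and the upstream site first.
PSBP1 5' splice sites, chr1:2048177-2048206: ggtgaagctgGTgcGTttataaaataaaat

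Retention could be measured for 20 introns in 12 of the genes, and the log2 ratio of retaining to splicing TPM was higher in sme1-1 for 19 of them without a threshold, beside 64.7% of all introns tested. Of these introns 2, both in FNR2, belong to the main form of their gene, and the other 18 belong to other transcripts. They are not independent of each other: 8 introns in 4 genes, PSAE1, PSBS, PSAN and FNR1, share their retaining TPM with an overlapping intron of the same gene. For 1 PSAH1 intron, chr3:5468508-5468595, the retaining transcript is the main form itself, at 798 ± 59.8 TPM in sme1-1 and 1099 ± 45.6 TPM in WT (SD, n = 3 each). For the 18 introns outside a main form, the splicing TPM leaves out the main form. A higher ratio can then come from less of another spliced form and need not mean more retention. Mean retaining TPM was lower in sme1-1 for that PSAH1 intron, the PSBQ2 intron and the PSAN introns, all with a higher ratio, and higher for the others. By limma on that ratio, 2 of the 20 passed, both higher in sme1-1, beside 4.56% higher and 1.03% lower over all introns tested. These were FNR2 intron 1 (log2 change 1.48, standard error 0.24, limma adjusted p = 0.029) and the PSBP1 intron that starts at the downstream site, of 106 nucleotides (log2 change 1.41, limma adjusted p = 0.0418). For PSBP1 the retaining TPM was 22.3, 24.6 and 20.1 in sme1-1, against 17.2, 18.5 and 15.8 in WT, so the ratio moved mainly with the lower level of the form spliced at the downstream site. Neither call held when libraries were left out: the PSBP1 call was lost whichever library was left out (limma adjusted p between 0.0756 and 0.138), and the FNR2 call held only without WT replicate 3 (limma adjusted p between 0.0489 and 0.108 over the 6 fits). The log2 changes in these fits lay between 1.25 and 1.57 for PSBP1 and between 1.32 and 1.63 for FNR2.

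Assembled transcripts are those that the authors added to the annotation from their reads. Of 46 assembled transcripts that retain an intron of the main form, in 17 genes, 33 had a usage change above 0 in sme1-1 without a threshold, beside 57.7% of all such transcripts tested. The per-transcript usage test (limma) called 9 of them higher and 1 lower in sme1-1, beside 8.0% higher and 4.33% lower over all genes. The one called lower, from PSBO1, averaged 8.9 ± 0.917 TPM in sme1-1 and 18.8 ± 6.26 TPM in WT (SD, n = 3 each). It retains the same intron, chr5:26568987-26569282, as the PSBO1 transcript called higher that is given next, so these opposite calls concern the same intron. Among those called higher, one from PSBO1 averaged 32.9 ± 4.44 TPM in sme1-1 and 14.5 ± 3.3 TPM in WT (SD, n = 3 each), one from PSBO2 16.5 ± 2.79 TPM in sme1-1 and 5.72 ± 1.07 TPM in WT, and one from PSBS 7.9 ± 0.972 TPM in sme1-1 and 1.72 ± 0.747 TPM in WT. Against the gene totals these are small: PSBO1 and PSBO2 averaged 4223 and 1379 TPM in sme1-1. Usage was tested on log2(TPM + 1), which damps changes at a few TPM. A minor transcript of a falling gene can thus gain usage at an unchanged share. For PSAF, the main transcript averaged 2946 TPM in sme1-1 and 5825 TPM in WT, with a usage change of -0.30. Its minor transcript averaged 2.22 and 4.25 TPM, with 0.30. More of the photosystem genes fell than rose, unlike all genes tested, so these backgrounds are not like for like.

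**Figure D5:**
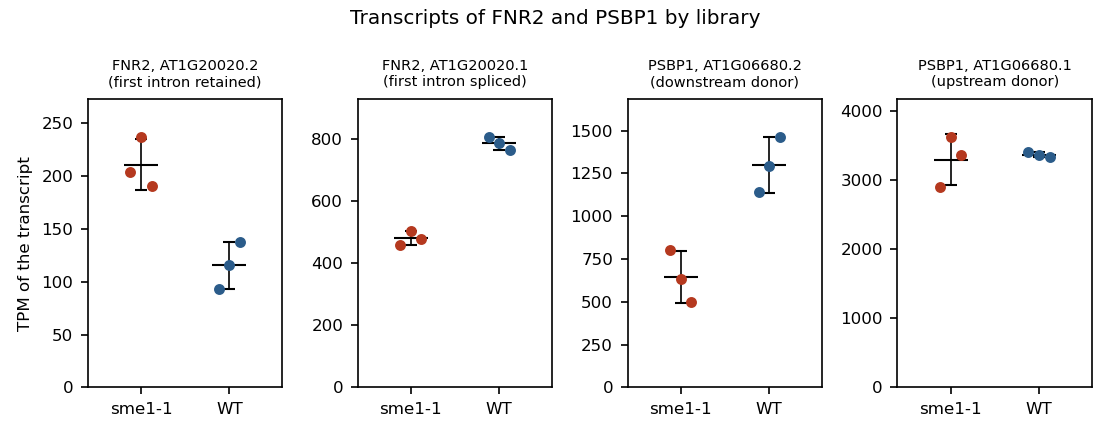
TPM in each library (points), with the mean (horizontal line) and SD (error bar), of the annotated FNR2 forms, with intron 1 retained and spliced, and of the annotated PSBP1 forms with the downstream and the upstream 5' splice site (donor), sme1-1 left of WT, axes starting at 0. The spliced FNR2 form and the downstream-site PSBP1 form are lower in all sme1-1 libraries, the retaining FNR2 form is higher, and the upstream-site PSBP1 form overlaps.

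Falls were found in genes with and without introns. The main transcript of 12 genes has no intron, among them FD2, PETE1 and PSAD2, and of these 6 fell and 1 rose (median log2 change -0.21). Of the 21 with an intron, 16 fell and 1 rose (median -0.39). Over all genes tested the medians were 0.25 for 3636 genes without and 0.21 for 16464 genes with an intron, and 17.8% and 20.5% fell. The difference between the intron classes was not tested.

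Promoter sequence, which played no part in the choice of the genes, was searched for 4 short motifs. In the window from 250 bases before to 50 bases after each RefSeq gene start, on either strand, CACGTG, the core of the G-box bound by light-signalling bHLH and bZIP factors, was present in 12 of 33 promoters (36.4%), beside 7.68% of 27443 promoters. GATAAG, the I-box, was present in 18 (54.5%), beside 14.6%, and CCAATC, which contains the CCAAT box and is also found in GLK-bound promoters, in 7 (21.2%), beside 12.3%. TATAAA was present in 16 (48.5%), beside 52.1%. The genes with and without CACGTG had median log2 changes of -0.35 and -0.32, those with and without GATAAG -0.38 and -0.28, and those with and without CCAATC -0.52 and -0.32. None of the motifs occurs in the windows of 4 genes: FD1 and PSBS, which rose, and FD2 and PSAN, which fell. Such matches are descriptions of letters and not of bound sites.

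The 250 bases upstream of 3 gene starts are shown from TAIR10.1, 5' to 3' on the strand of the gene, with matches to the motifs on either strand in capitals: PSBQ1 as a gene that fell and carries CACGTG, PETC as a gene that fell and carries GATAAG and CCAATC on the opposite strand, and FD1 as the gene that rose most. In the full 300-base window PSBQ1 also holds GATAAG, which spans the gene start, and CCAATC, which lies after it, so neither is marked below.
PSBQ1, chr4:11334102-11334351, plus strand: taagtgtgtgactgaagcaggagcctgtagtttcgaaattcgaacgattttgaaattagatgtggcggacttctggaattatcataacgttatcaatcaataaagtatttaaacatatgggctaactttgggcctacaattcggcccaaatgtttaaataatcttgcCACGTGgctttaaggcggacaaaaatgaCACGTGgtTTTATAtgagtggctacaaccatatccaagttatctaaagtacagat
PETC, chr4:1439896-1440145, plus strand: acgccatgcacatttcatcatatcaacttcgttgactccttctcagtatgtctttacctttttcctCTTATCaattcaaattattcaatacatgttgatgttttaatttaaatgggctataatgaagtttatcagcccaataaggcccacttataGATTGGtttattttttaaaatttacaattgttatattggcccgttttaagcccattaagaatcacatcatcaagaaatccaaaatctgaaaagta
FD1, chr1:3663937-3664186, plus strand: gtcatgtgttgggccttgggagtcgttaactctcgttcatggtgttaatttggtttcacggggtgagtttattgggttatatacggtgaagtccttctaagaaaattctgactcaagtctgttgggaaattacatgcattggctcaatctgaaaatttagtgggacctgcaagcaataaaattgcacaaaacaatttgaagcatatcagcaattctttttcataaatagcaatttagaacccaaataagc

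Other genes of photosynthesis were counted from listed groups, under TPM unless another scaling is named, beside 20% lower and 47.3% higher over all genes tested, and levels are means ± SD of 3 libraries each. Of 16 factors for photosystem assembly and repair, 9 fell and 3 rose (median log2 change -0.23), with 11 and 10 lower under median-of-ratios and quantile scaling. ALB3, the insertase that places antenna proteins in the thylakoid membrane, averaged 486 ± 40.8 TPM in sme1-1 and 709 ± 15.7 TPM in WT (log2 change -0.55, limma adjusted p = 5.80e-04). Y3IP1, an assembly factor of PSI, rose, with 124 ± 4.79 TPM in sme1-1 and 80.7 ± 2.86 TPM in WT (log2 change 0.61, limma adjusted p = 1.23e-04). PAM68 and LQY1, which act in PSII assembly and repair, fell, with log2 changes of -0.37 and -0.50 (limma adjusted p = 4.35e-04 and 7.50e-04). Of 21 antenna genes, 10 fell and 2 rose (median -0.18), a count that became 16 lower and 1 higher under median-of-ratios scaling and 5 lower and 6 higher under quantile normalization. Of 14 Calvin cycle genes, 2 fell and 5 rose (median 0.15), against 4 and 2 under median-of-ratios scaling and 0 and 7 under quantile normalization.

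Genes that regulate electron flow, and nuclear genes that regulate photosynthetic genes, were counted in the same way. Of 13 genes for electron flow regulation and thylakoid shape, 4 rose and 1 fell, and under median-of-ratios scaling 2 were higher and 5 lower. CURT1D, a thylakoid curvature protein, averaged 41.7 ± 1.14 TPM in sme1-1 and 20.4 ± 1.54 TPM in WT (log2 change 1.00, limma adjusted p = 5.15e-05). PGRL1B, of the cyclic electron flow pathway around PSI, averaged 62.6 ± 4 TPM in sme1-1 and 37.8 ± 3.16 TPM in WT (log2 change 0.71, limma adjusted p = 3.14e-04). Of 9 nuclear regulators, 6 rose and none fell (limma; 0 lower at an unadjusted p below 0.05), and under median-of-ratios scaling 3 were higher and 2 lower. GLK1, a transcription factor that activates nuclear photosynthesis genes, averaged 135 ± 9.63 TPM in sme1-1 and 62.2 ± 2.07 TPM in WT, 2.16 times the WT mean (limma adjusted p = 3.58e-05). GUN1, a chloroplast protein of retrograde signalling, averaged 121 ± 5.35 TPM in sme1-1 and 70.8 ± 1.63 TPM in WT (log2 change 0.76, limma adjusted p = 5.33e-05), and SIG5, a sigma factor of the plastid RNA polymerase, 55.0 ± 2.82 TPM in sme1-1 and 28.4 ± 5.52 TPM in WT (log2 change 0.94, limma adjusted p = 0.00109). These 3 were higher under all 3 scalings. Of the 5 listed genes of the chloroplast NDH complex, NDHM rose (log2 change 0.69, limma adjusted p = 0.00138), PPL2 fell (log2 change -0.20, limma adjusted p = 0.0266) and the others did not pass the test.

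Minor and non-photosynthetic isoforms gave the largest rises among the listed photosynthesis genes. Of 10 genes in this list, 4 rose and 4 fell. The list also holds PETM, the cytochrome b6f subunit given above, which is not such an isoform and counts among those that fell. RFNR2, a root-type ferredoxin-NADP reductase, had 80.5, 59.8 and 69.4 TPM in sme1-1, against 12.8, 12.97 and 16.8 TPM in WT (log2 change 2.22, limma adjusted p = 4.01e-05). RFNR1, the other root-type reductase, averaged 25.6 ± 0.722 TPM in sme1-1 and 7.45 ± 0.734 TPM in WT (log2 change 1.66, limma adjusted p = 2.11e-05), and FD3, a non-photosynthetic ferredoxin, 70.4 ± 9.34 TPM in sme1-1 and 21.6 ± 3.41 TPM in WT (log2 change 1.66, limma adjusted p = 9.33e-05). CYTC6A, a cytochrome c6-like lumenal protein, fell, with 34.7 ± 3.92 TPM in sme1-1 and 69.5 ± 1.64 TPM in WT (log2 change -0.98, limma adjusted p = 1.17e-04). Root markers moved with these genes: 8 of 8 tested of 10 listed rose, their sum was 92.4, 54.4 and 62.9 TPM in sme1-1, against 13.3, 13.2 and 17.3 TPM in WT, and the highest sum was in sme1-1 replicate 1, the library with the lowest photosystem sums. No root marker was at 0 in all libraries, and PRP1 was listed at 0 in every WT library. Their part in any of the differences above was not tested. Floral markers summed to 6.34, 7.2 and 8.69 TPM in sme1-1, against 5.12, 3.57 and 3.2 TPM in WT, and 1 of 3 tested of 5 listed rose. Leaf markers summed to 18241, 20659 and 18066 TPM in sme1-1, against 18956, 17968 and 18646 TPM in WT, with overlap, and 1 rose and 3 fell of 5. These leaf markers, RBCS1A, RCA, CA1, GAPA and SBPASE, include genes of photosynthesis itself, such as the Rubisco gene RBCS1A. Their sum is therefore not a measure of leaf tissue alone.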

How the data were processed

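RNA-seq values of 3 sme1-1 and 3 WT shoot libraries were analysed. The deposited tables hold TPM per gene and per transcript, made by the authors with kallisto 0.43.0 against Araport11 extended by transcripts assembled from their reads, with STAR 2.5.2b also named, per the submitters' processing notes and the source column of the deposited annotation; each library sums to 1000000, so depth is unknown and no counting interval can be given. The deposited gene TPM equals the sum over the transcripts of the gene, so intron-retaining and other unproductive forms count towards the gene level. No source used here names the genome build; exon ends of the deposited annotation met GT or GC and AG in 99.4% of 141522 nuclear introns of TAIR10.1, so sequences and coordinates were read from that assembly, with RefSeq gene starts.

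Gene levels were tested with limma 3.58.1 (trend, R 4.3.3) on log2(TPM + 1) over genes whose mean reached 1 TPM, adjusted over all of them by Benjamini and Hochberg, with a threshold of 0.05. Usage was tested with limma's diffSplice over transcripts whose mean reached 1 TPM. Retention was tested with limma on log2((R + 0.1)/(S + 0.1)), where R and S are the summed TPM of transcripts that keep or splice an intron, where R + S reached 2 TPM with a mean retained share between 0.02 and 0.98. Pair ratios were compared by a two-sided exact permutation test. The fits were tested on simulated data before use. The alternatives were median-of-ratios and quantile scaling, other pseudocounts and filters, no variance trend, annotated transcripts only, each library left out, and replicate number as a block. The genes, gene lists and marker lists were chosen with earlier results of these data known, so no count is independent evidence of a direction. By rule, each list names up to 4 genes with the smallest adjusted p.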

Additional observations from a re-analysis of the deposited data

How the results depend on the processing

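The counts of falling and rising genes depended mainly on scaling. Of the 33 genes, 9 were lower and 4 higher under quantile normalization. Over all genes tested, 6674 were lower under median-of-ratios scaling, 7201 were lower and 6218 higher under quantile normalization. Under median-of-ratios scaling, electron flow regulation had 5 lower and 2 higher, nuclear regulators 2 lower and 3 higher, antenna genes 16 lower and 1 higher, Calvin cycle genes 4 lower and 2 higher, and leaf markers 0 higher; under quantile normalization, antenna genes had 5 lower and 6 higher, Calvin cycle genes 0 lower, leaf markers 1 lower and floral markers 0 higher. The sums by role were 61.4% (PSI), 69.4% (PSII), 62.2% (electron carriers), 87.2% (ATP synthase) and 65.6% (all) of WT under median-of-ratios scaling. The log2 change turned positive under quantile normalization for PSAD1 (0.15), PSAG (0.11), PSAH2 (0.079), PSBO1 (0.15), PSBP1 (0.12), PSBR (0.059), PSBTN (0.034), PSBX (0.030), ATPC1 (0.058) and ATPG (0.015), and negative under median-of-ratios scaling for PSBO2 (-0.22), FNR1 (-0.20) and ATPD (-0.036). Near 0, leaving out 1 library gave log2 changes of -0.0444 to 0.0583 for PSBO2 and -0.00355 to 0.0638 for FNR1. With no filter on low values, 17 of the 33 were lower. The cause was not tested.
Leaving out 1 library in turn gave 19 to 25 of the 33 lower and 2 to 3 higher, 3368 to 3966 of all genes lower and 8576 to 9178 higher, 7 to 11 usage calls and 0 to 1 retention calls. The difference in log2 ratio was 0.19 to 0.27 for PSAD, -0.14 to -0.05 for PSAE, -0.35 to -0.29 for PSAH, -0.39 to -0.34 for PSBO, -0.06 to -0.02 for PSBQ, -0.09 to -0.01 for PETE, 1.73 to 2.13 for FD and 0.33 to 0.38 for FNR. Sums as a percentage of WT were 68.5 to 75.8 for PSI, 78.7 to 84.6 for PSII, 68.7 to 77.3 for electron carriers, 97.7 to 105.4 for the ATP synthase and 73.6 to 80.5 for all. With pseudocount 1 the retention test called 4 introns of these genes. Whether the replicate numbers pair the libraries cannot be told from these values. Deviations of same-numbered libraries correlated weakly across genes, at r = 0.0168, 0.0562 and 0.0322, all under 0.1. Each library nevertheless correlated best with its own number, and differently numbered libraries gave r between -0.0454 and 0.00498. With replicate as a block, 21 genes were lower, 2 higher, and the retention test called 0 introns (adjusted p = 0.0827 for FNR2 and 0.101 for PSBP1 by limma). Unknown depth limits what can be said of low transcripts.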
